A study of Rattus norvegicus with 12 samples.

Results

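The response of adult female rat liver to the synthetic glucocorticoid dexamethasone was read from 6 of the 12 microarrays of the series, 3 after dexamethasone and 3 after vehicle, picked by the sex and treatment in their labels. All probes other than controls were considered: 24296 genes or unnamed transcripts, 12068 of them with a gene symbol, were bright enough to be tested. The female animals (XX) were Sprague-Dawley rats, 8 to 10 weeks of age, adrenalectomized, and in the cycle stage given as Diestrous 1. Vehicle animals received 400 µl of phosphate buffered saline, the others 1 mg/kg dexamethasone into the peritoneum, and liver was taken 6 hours later. Both groups lacked adrenal glands, so the controls carried the same surgery and no adrenal source of their own glucocorticoid. Each array held equal amounts of total RNA from 3 animals, 9 animals a group, so that the errors below are between pools and not between single animals. The remaining 6 arrays held liver of male rats given the same treatments and enter only the estimate of the spread and the comparison between the sexes.

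Glucocorticoids act through the glucocorticoid receptor, a transcription factor held by heat shock chaperones until hormone binds. The receptor then binds palindromic DNA elements and raises the transcription of nearby genes, and it also lowers the activity of the inflammatory factors NF-kappaB and AP-1. In liver the hormone is known for inducing enzymes that break down amino acids and make glucose, for shifting lipid handling, and for dampening the expression of chemokines and interferon-responsive genes.

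RNA was hybridised to 1-colour Agilent rat arrays of 60-base probes, and a level is given throughout as the log2 signal of a probe minus the 75th percentile of its array. Levels compare arrays for one probe and never one gene with another. Differences are dexamethasone minus vehicle on the log2 scale ± SE with 3 arrays a group, and a gene is called higher or lower at a limma p-value under 0.05 after Benjamini-Hochberg adjustment over all genes tested. On the female arrays 53.6% to 64.1% of spots were well above background, and no spot was saturated. Pairs of arrays correlated at 0.956 to 0.981 within vehicle, 0.978 to 0.991 within dexamethasone and 0.932 to 0.947 between the groups.

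Dexamethasone changed 5915 genes, 24.3% of those tested, with 2860 higher (11.8%) and 3055 lower (12.6%). Of these, 3530 (14.5% of all genes) moved at least 2-fold, 1613 up and 1917 down, and 879 moved at least 4-fold. The 3 vehicle and 3 dexamethasone levels did not overlap for 5882 of the called genes, while 43.1% of all genes tested showed no overlap. The median difference over all genes was -0.07 with quartiles of -0.60 and 0.39, and each gene list below is to be read beside that median. Counts of called members are likewise to be read beside the 11.8% of all genes called higher and the 12.6% called lower. Members of a list count as measured where their probe was well above background on at least 3 of the 12 arrays; a member seen under one treatment alone passed because it was high there, so counts over measured members describe and do not test a list. When arrays were scaled by their median in place of the 75th percentile, the all-gene median moved to 0.13 and the share of calls that were increases went from 48.4% to 65.2%. Of 56 list medians 47 kept their sign under that scaling, and the medians that changed sign are not printed below. No list median printed below changed sign under quantile normalization or normexp background correction. Leaving out dexamethasone array 2 reduced the calls to 3740, and other female arrays left between 4033 and 5775.

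The layout of the slides limits what can be said. Vehicle arrays 1 and 2 shared slide 2, dexamethasone arrays 1 and 2 shared slide 4, and only slide 5 held both female groups, with replicate 3 of each. For replicates 1 and 2 slide and treatment cannot be told apart. With slide as a block the fit called 3079 genes, 2512 of them among the 5915, and 5907 of the 5915 kept their direction. For each list below, a count of 2 or more is followed in parentheses by the count with slide as a block, where that was over 1.5 times lower or higher, and by the count without 1 array, where that was over 1.5 times lower. Of 15 list counts of 1 gene, 9 became 0 and 2 became 2 with that block. A list median is followed likewise by its value with slide as a block, within slide 5, with normexp or without 1 array where that was over 1.5 times apart. Within slide 5 alone, a value with no test, 5904 of 5914 called genes moved the same way.

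**Figure D1:**
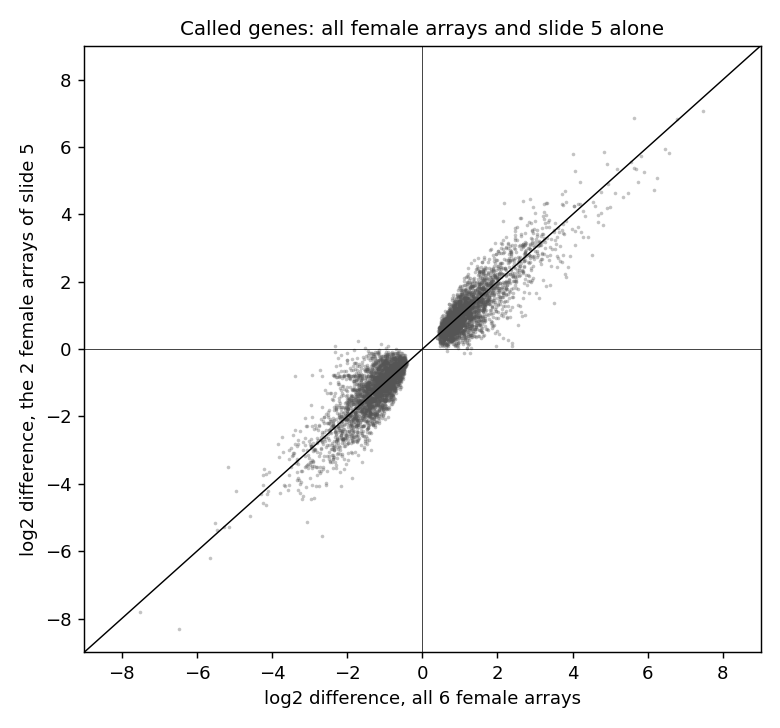
Each point is a called gene, with its log2 difference over all 6 female arrays on the x axis and within slide 5 alone (vehicle and dexamethasone replicate 3) on the y axis; the diagonal marks equal values. Points lie in the quadrants of equal sign for 5904 of 5914 genes, which the lack of overlap between the groups fixes for most of them.

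Regulators known to be induced by glucocorticoids mostly rose: 21 of 29 measured members were called higher and 1 lower, with a median difference of 1.80. Fkbp5 (probe A_44_P532249), a co-chaperone that lowers the hormone affinity of the receptor, stood at 0.46, 0.53 and 0.70 in the vehicle arrays and at 5.16 and 5.06 in dexamethasone arrays 2 and 3, its spot on array 1 being flagged. The groups lay far apart, and the difference was 4.54 ± 0.20 (adjusted p = 3.54e-06). Tsc22d3 (probe A_42_P822638), the anti-inflammatory leucine zipper protein GILZ, read 3.32, 3.34 and 2.92 after vehicle and 6.38, 6.00 and 5.72 after dexamethasone, a 7.17-fold increase without overlap (adjusted p = 3.58e-05). The clock gene Per1 (probe A_44_P114034) was tight within each group, at -1.69, -1.75 and -1.76 against 1.08, 1.16 and 0.71, and rose by 2.71 ± 0.17 (adjusted p = 5.81e-06).

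The largest increase of the list belonged to Cdkn1a, which encodes the cell cycle inhibitor p21 and rose 36.5-fold from -0.48, -0.32 and -0.01 to 4.80, 4.61 and 5.35. Gadd45b, a stress-response gene, rose by 3.53 ± 0.38, and the phosphatidate phosphatase gene Lpin1 by 3.07 ± 0.18. Zbtb16, a zinc finger repressor, rose by 3.08 ± 0.84 with vehicle levels of -3.75, -3.29 and -2.13, a wide spread. Sgk1, the serum and glucocorticoid regulated kinase, rose by 2.20 ± 0.28, and the MAP kinase phosphatase gene Dusp1 by 2.24 ± 0.62. Among the members that did not pass the test were Cebpb (0.19 ± 0.22) and Per2 (0.46 ± 0.43). Irs2, the insulin receptor substrate, was the member called lower, at -2.24 ± 0.28; its 4 probes gave differences from -0.66 to -2.24 and 2 of them were called. With slide as a block the calls ended for Dusp1 (0.100), adjusted p in parentheses. Leaving out 1 array ended the call for Zbtb16 (0.079) without vehicle array 1, and Dusp1 (0.0918) without dexamethasone array 2, adjusted p in parentheses.

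**Figure D2:**
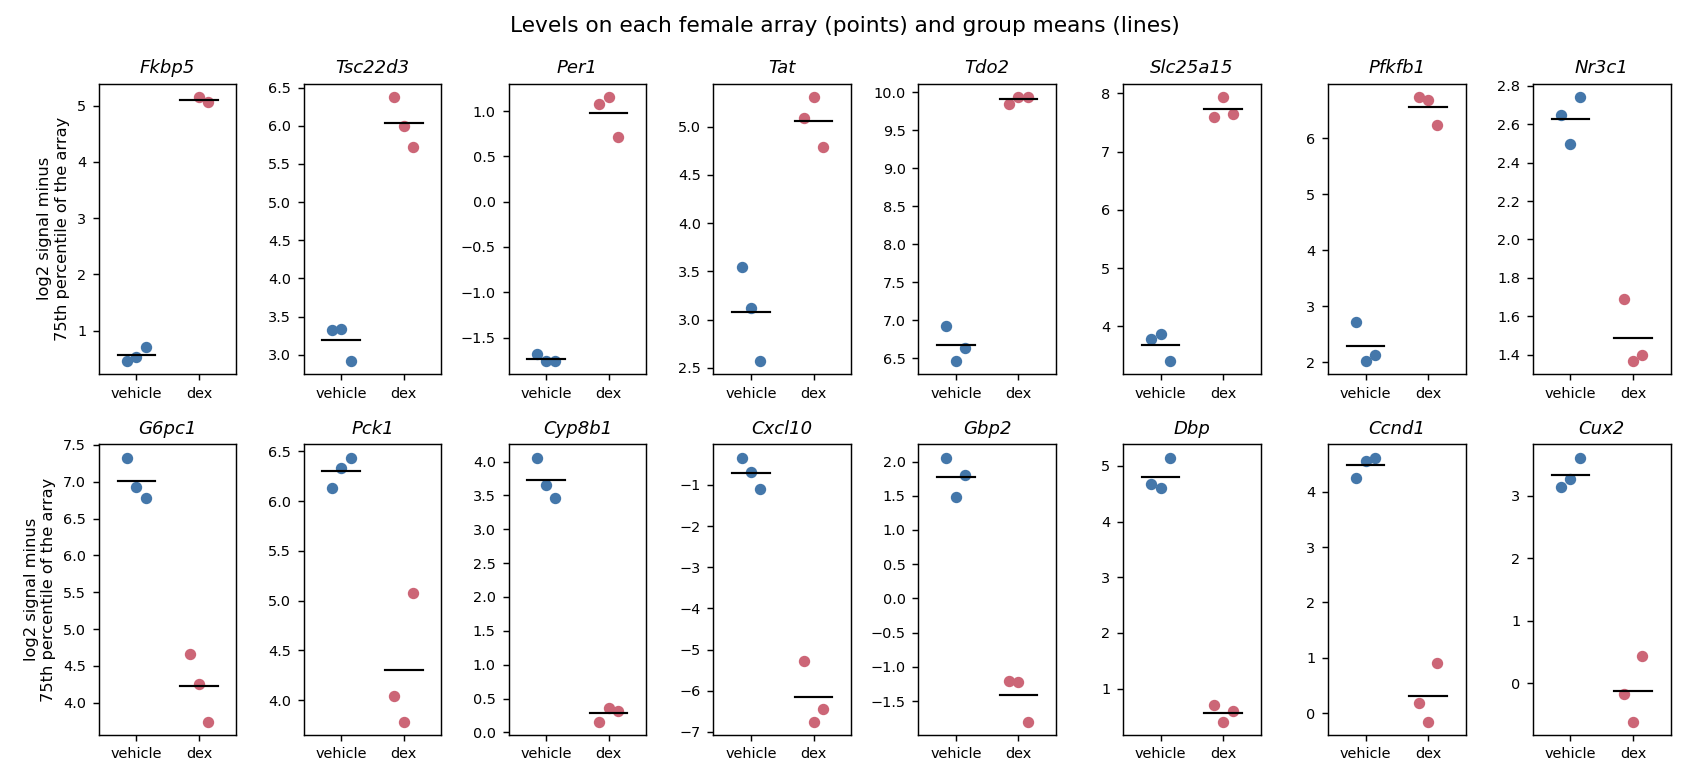
Levels (log2 signal minus the 75th percentile of the array, y axis, a separate scale in each panel) of 16 genes on the 3 vehicle (blue) and 3 dexamethasone (dex, red) female arrays; points are arrays and lines are group means. The groups do not overlap in any panel; Fkbp5 has 2 dexamethasone points, and Cxcl10 was not well above background on any dexamethasone array.

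The receptor itself fell. Nr3c1 (probe A_43_P15242), which encodes the glucocorticoid receptor, read 2.65, 2.49 and 2.74 in vehicle liver and 1.69, 1.37 and 1.40 after dexamethasone, so that every treated array lay below every control (-1.14 ± 0.17, adjusted p = 9.93e-04). Nr3c2, the mineralocorticoid receptor, fell by 1.39 on the log2 scale (adjusted p = 5.06e-04). H6pd, which supplies NADPH to the enzyme that regenerates active glucocorticoid, rose by 1.2 ± 0.16, whereas Hsd11b1, that enzyme, did not pass the test (0.30 ± 0.25). Over the list of receptor, chaperones and coregulators 5 (2 with the slide block) of 23 rose and 2 fell. Of 22 cytosolic heat shock chaperones 12 (6 with the slide block) were higher and 1 lower, with a median of 0.75 (0.69 with members below background in 1 group at their bound). Hspa1a, the inducible HSP70, led them at 2.59 ± 0.20, followed among those stable to the slide by the HSP90 partners Chordc1 (1.15 ± 0.17) and Stip1 (1.12 ± 0.19).

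Genes of gluconeogenesis split. Of 22 measured members 8 rose and 4 fell. The enzyme of the last step, glucose-6-phosphatase (G6pc1, probe A_44_P330342), stood at 7.33, 6.93 and 6.78 in vehicle liver and at 4.66, 4.26 and 3.74 after dexamethasone. It was lower on every treated array, 6.94-fold on average (-2.79 ± 0.26, adjusted p = 6.62e-05). Pck1 (probe A_44_P517258), the cytosolic phosphoenolpyruvate carboxykinase that commits carbon to glucose, read 6.13, 6.34 and 6.44 against 4.04, 3.78 and 5.08. It fell by 2.0 on the log2 scale (SE 0.40, adjusted p = 0.00483), with treated array 3 nearest the controls. Slc25a10, the mitochondrial dicarboxylate carrier, fell too (-1.44 ± 0.27). Among the members called higher, the aspartate aminotransferase gene Got1 rose by 3.12 ± 0.17, the alanine aminotransferase gene Gpt by 2.45 ± 0.39 and the malate dehydrogenase gene Mdh1 by 1.45 ± 0.22. Foxo1, a transcription factor that activates G6pc1 and Pck1, rose by 1.11 ± 0.19. The coactivator gene Ppargc1a (-0.57 ± 0.35), Fbp1 (-0.14 ± 0.19) and Pc (-0.11 ± 0.19), which encodes pyruvate carboxylase, did not pass the test. Slide as a block gave a call for Ppargc1a (-1.29, adjusted p = 0.0399).

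Transcripts for amino acid breakdown rose at selected steps, with those of 11 of 33 measured enzymes higher and 2 (1 with the slide block, 0 without vehicle array 2) lower (median 0.45). Tdo2 (probe A_42_P800916), tryptophan dioxygenase, read 6.92, 6.46 and 6.63 in vehicle liver and 9.84, 9.94 and 9.94 after dexamethasone, a 9.43-fold rise with near-identical treated arrays (adjusted p = 3.75e-06). Tat (probe A_44_P515484), tyrosine aminotransferase and a textbook glucocorticoid target, went from 3.54, 3.12 and 2.57 to 5.09, 5.31 and 4.79 (1.98 ± 0.32, adjusted p = 0.0015). Gnmt, which takes up methyl groups from S-adenosylmethionine, rose by 1.91 ± 0.25, and serine dehydratase (Sds) by 1.82 ± 0.38. Hal, histidine ammonia-lyase, fell by 1.19 on the log2 scale (SE 0.36). Hpd (0.60 ± 0.21) and Fah (0.06 ± 0.18), further along the tyrosine path, did not pass the test. In the fit with slide as a block, the adjusted p passed 0.05 for Hal (0.0591), value in parentheses. Without 1 array the highest adjusted p was past 0.05 for Hal (0.133) without dexamethasone array 2.

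The 250 bases before the RefSeq start of Tdo2 (chr2:169585587-169585836, minus strand, build GRCr8) are shown because they hold the core of the palindrome the receptor binds, spelled ACANNNTGT and marked in capitals, starting 172 bases before the start.
Tdo2: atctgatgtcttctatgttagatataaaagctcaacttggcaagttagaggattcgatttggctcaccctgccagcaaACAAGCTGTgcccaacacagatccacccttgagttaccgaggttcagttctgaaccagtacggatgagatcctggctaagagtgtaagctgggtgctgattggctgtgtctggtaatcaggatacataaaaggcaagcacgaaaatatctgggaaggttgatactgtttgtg
That core, which reads the same pattern on both strands, was in 3.92% of 9708 tested genes' promoters of the same length (5.62% of all 27457 promoters) and in 16 of the 178 matched promoters (8.99%) of genes called at least 4-fold higher. Among genes called at least 4-fold lower it was in 3 of 150. A single arm of the palindrome, AGAACA, searched on both strands, was in 12.9% of promoters of the genes at least 4-fold higher, 15.3% of those at least 4-fold lower and 11.2% of tested genes' promoters. The palindrome core was in 0 of the 18 matched promoters of the glucocorticoid-induced regulators called higher, and the single arm was in 1. The 0 says only that the letters of the core were not in that window.

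Most measured transcripts of nitrogen disposal rose as well. Of the 8 measured urea cycle genes and arginases 6 were called higher and 0 (0 at an unadjusted p under 0.05) lower, with a median of 1.65. Slc25a15, the ornithine carrier of the mitochondrial membrane, moved from 3.79, 3.87 and 3.41 to 7.59, 7.94 and 7.65, a 16.4-fold rise (adjusted p = 3.54e-06). Arg2, the mitochondrial arginase, was not well above background on any vehicle array and was at least 6.06-fold higher after dexamethasone (adjusted p = 3.84e-06). Cps1, the enzyme of the first and rate-limiting step, rose by 2.18 ± 0.58, argininosuccinate synthase (Ass1) by 2.02 ± 0.17 and liver arginase (Arg1) by 1.28 ± 0.20. Nags, which makes the activator of Cps1, rose by 0.93 ± 0.19. Otc (-0.27 ± 0.22) and Asl (0.72 ± 0.26) did not pass the test. The slide block ended the call for Cps1 (0.1000), adjusted p in parentheses. A call was gained with slide as a block for Asl (adjusted p = 0.0337 with a random block). The call was lost on leaving out 1 array for Cps1 (0.0803) without dexamethasone array 2, adjusted p in parentheses.

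Amino acid transporters moved in both directions, 4 (2 without dexamethasone array 3) higher and 6 (3 with the slide block) lower of 18. Slc38a2, a sodium-coupled importer of small neutral amino acids, rose by 2.12 ± 0.23. Slc7a5, the large neutral amino acid exchanger, fell from -1.38, -1.34 and -1.26 to -5.01, -4.29 and -5.31, with 1 of 3 treated arrays well above background (adjusted p = 3.91e-04). Slc1a5, a glutamine importer, fell by 1.56 (SE 0.19), while Slc3a2, the partner chain of Slc7a5, rose by 1.5 ± 0.32. Calls that ended when slide was a block were those of Slc3a2 (0.0969), adjusted p in parentheses.

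Among genes of glucose use and glycogen 7 of 26 rose and 6 fell. Pfkfb1 (probe A_42_P580305), the liver form of the enzyme that sets fructose-2,6-bisphosphate, the switch between glycolysis and gluconeogenesis, went from 2.71, 2.02 and 2.13 to 6.74, 6.69 and 6.24. The rise was 19.3-fold (adjusted p = 1.80e-05) and the groups were far apart. Ppp1r3c, a subunit that directs phosphatase to glycogen, rose by 2.63 ± 0.31 and the liver phosphofructokinase gene Pfkl by 1.33 ± 0.16. Pdk4, the kinase that shuts pyruvate dehydrogenase, was not well above background on any treated array and was at least 9.13-fold lower (adjusted p = 3.06e-04). Glycogen synthase (Gys2) fell by 1.24 (SE 0.18) and Ugp2, which makes its UDP-glucose, by 1.52 (SE 0.31). Glycogen phosphorylase (Pygl, -0.42 ± 0.19) did not pass the test.

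The promoter of Pfkfb1 (chrX:22941926-22942175, plus strand, build GRCr8) is shown as that of another strongly induced metabolic enzyme whose window holds the same core, again in capitals and starting 234 bases before the start. Not all genes with the core are shown. A match is a description of letters and not a measured binding site.
Pfkfb1: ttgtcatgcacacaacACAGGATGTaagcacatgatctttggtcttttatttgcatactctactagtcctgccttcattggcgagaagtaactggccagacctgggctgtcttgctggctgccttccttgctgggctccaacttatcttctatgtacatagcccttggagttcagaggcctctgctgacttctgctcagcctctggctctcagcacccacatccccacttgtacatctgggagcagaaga

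In the insulin pathway 5 of 24 measured genes rose and 3 fell, a share called of 33.3% beside 24.3% of all genes. Pik3r1, the regulatory subunit of phosphoinositide 3-kinase, well above background on 2 vehicle arrays, rose by 2.01 ± 0.20, and Sesn1, a brake on mTOR, by 2.16 ± 0.48. Foxo3, well above background on 1 vehicle array, rose by 2.16 ± 0.33. Inpp5d, a phosphatase of the lipid product of that kinase, fell by 1.45 (SE 0.26). The receptor Insr (-0.51 ± 0.40) and the kinases Akt1 (0.02 ± 0.26) and Akt2 (-0.13 ± 0.28) did not pass the test, nor did the insulin-repressed gene Igfbp1 (-0.37 ± 0.54).

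Of 27 measured cholesterol synthesis genes 10 (2 with the slide block, 5 without dexamethasone array 1) were called lower and 1 higher, with a median of -0.69 (-0.44 with the slide block). Hmgcs1, which makes HMG-CoA in the cytosol, fell by 2.34 (SE 0.33, adjusted p = 7.21e-04), and the sterol methyl oxidase Msmo1 by 1.15 (SE 0.23).

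Fatty acid oxidation and ketogenesis had 2 genes higher and 9 (3 with the slide block, 3 without dexamethasone array 2) lower of 32, with a median of -0.44 (-0.18 with the slide block, -0.06 within slide 5). Cpt1a, the gatekeeper of mitochondrial fatty acid import, fell by 1.48 (SE 0.22). The fasting hormone gene Fgf21 read 2.63, 2.01 and 0.52 in vehicle liver and -1.72, -1.40 and -1.87 after dexamethasone, and fell by 3.38 (SE 0.92) with a wide spread among controls. Pex11a, a factor of peroxisome division, rose by 3.29 ± 0.31, and Cpt2 by 1.18 ± 0.22. The nuclear receptor Ppara (0.98 ± 0.41), which drives this programme, did not pass the test. Once slide entered the fit as a block, no call was made for Cpt1a (0.0509) and Fgf21 (0.171), adjusted p in parentheses. Slide as a block gave a call for Ppara (1.37, adjusted p = 0.0323). On leaving out each array in turn, the call ended for Fgf21 (0.0787) without vehicle array 1, adjusted p in parentheses.

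Lipid droplet genes were called at 5 of 18 higher and 1 lower, with a median of 0.47 (0.24 with normexp). Cidea, which enlarges droplets, rose by 2.98 ± 0.27, the droplet coat gene Plin5 by 2.89 ± 0.30 and the triglyceride lipase gene Pnpla2 by 2.31 ± 0.25. In triglyceride synthesis and lipogenesis 4 (2 with the slide block, 1 without dexamethasone array 2) of 21 rose, led by Lpin1, and 1 fell. The share of that list called was 23.8%, beside 24.3% of all genes. Fatty acid synthase (Fasn, -0.71 ± 0.68), Scd (0.75 ± 0.48) and Srebf1 (-0.45 ± 0.32) did not pass the test.

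In bile acid synthesis Cyp8b1 (probe A_44_P387780), which sets the share of cholic acid, fell from 4.06, 3.66 and 3.46 to 0.16, 0.36 and 0.32, 10.9-fold lower with no overlap (adjusted p = 1.48e-05). Amacr, the racemase of the side-chain pathway, fell by 2.95 (SE 0.27) and the conjugating enzyme Baat fell by 1.66 (SE 0.24). Cyp27a1, which opens the acidic pathway, rose by 1.35 ± 0.16, and the bile salt export pump Abcb11 by 1.29 ± 0.33. Cyp7a1, the rate-limiting enzyme of the classic pathway, gave -0.20 ± 0.37 and did not pass the test. Of 27 genes in the list 2 (1 without dexamethasone array 1) rose and 5 (3 with the slide block, 3 without vehicle array 1) fell. The share of that list called was 25.9%, beside 24.3% of all genes. Of 21 apolipoprotein and lipoprotein genes 1 was called higher and 1 lower. Leaving out 1 array ended the call for Abcb11 (0.0606) without dexamethasone array 1, adjusted p in parentheses.

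**Figure D3:**
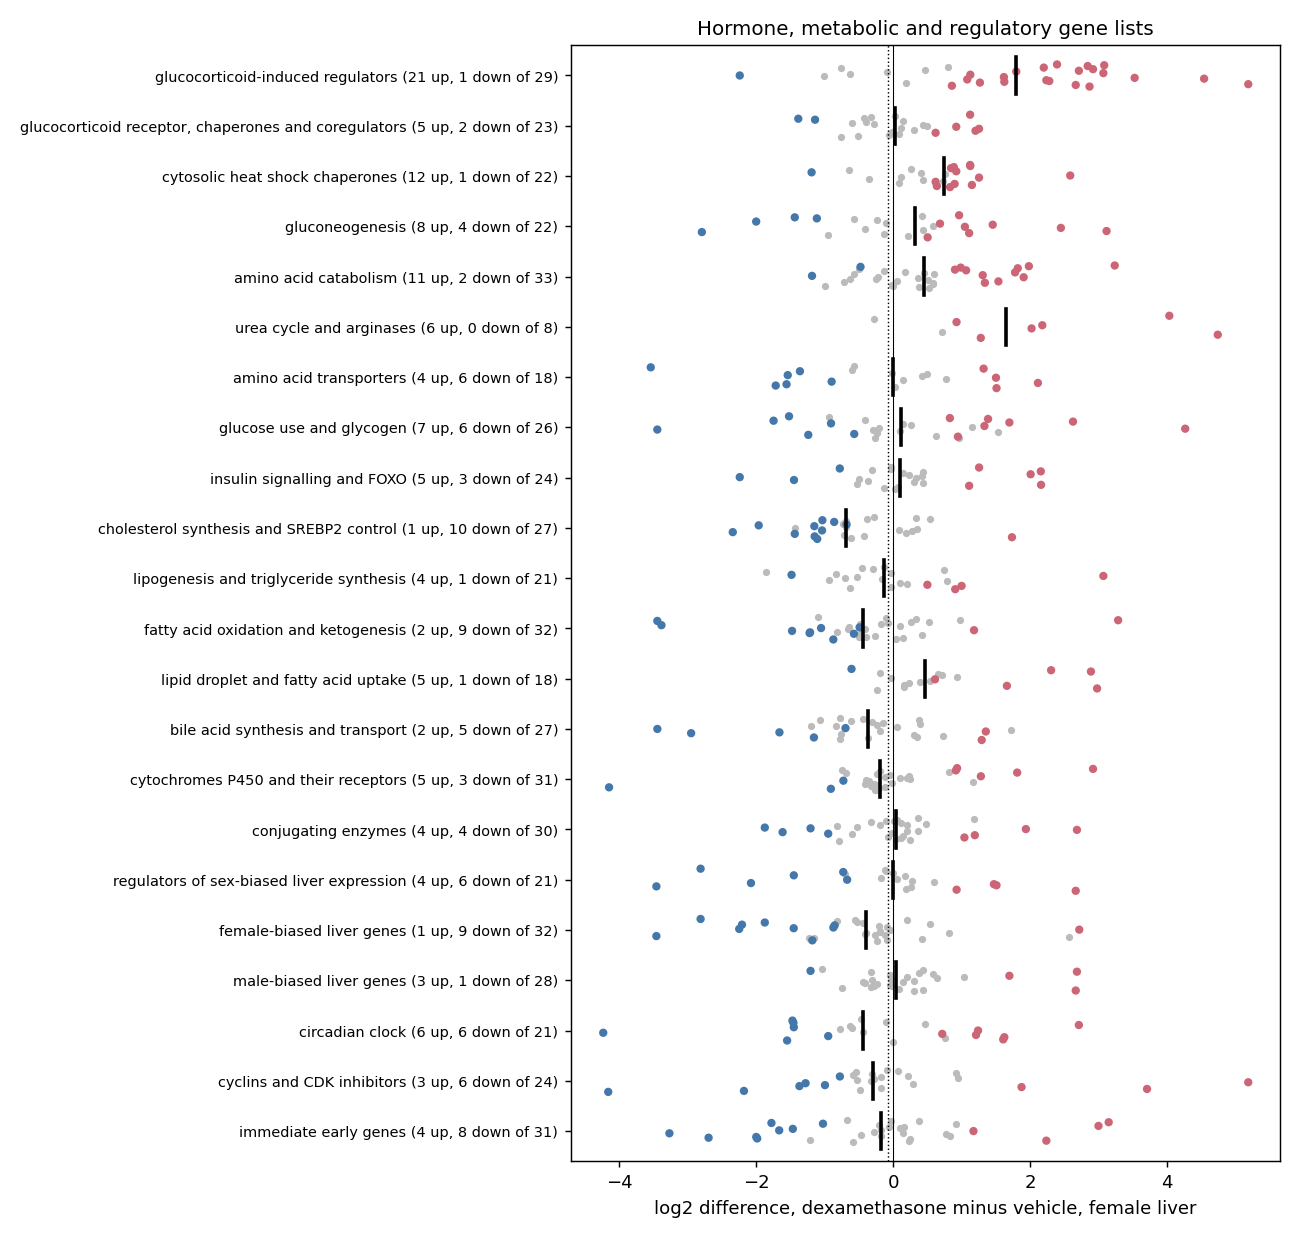
Log2 differences (x axis, dexamethasone minus vehicle, female liver) of the measured members of each hormone, metabolic and regulatory list; red points were called higher, blue lower and grey neither, bars are list medians and the dotted line is the all-gene median of -0.07. Numbers called up and down of those measured stand beside each list's name.

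Of 31 cytochromes P450 and their receptors 5 were higher and 3 (1 with the slide block, 1 without dexamethasone array 2) lower, a share called of 25.8% beside 24.3% of all genes. Por, the reductase that passes electrons to all microsomal P450s, rose 7.57-fold (2.92 ± 0.23, adjusted p = 2.36e-05), and Nr1i2, the pregnane X receptor, by 0.92 ± 0.19. Cyp26b1, which clears retinoic acid, was not well above background on any treated array and was at least 5.46-fold lower (adjusted p = 2.33e-04). The classic dexamethasone-inducible gene Cyp3a23-3a1 gave -0.70 ± 0.38, not past the test. Among conjugating enzymes Sult1a1, a phenol sulfotransferase, rose by 2.69 ± 0.18 and Gstt2 fell by 1.61 (SE 0.19). Among targets of the antioxidant factor NRF2, 0 (0 at an unadjusted p under 0.05) of 19 rose and 3 (1 with the slide block, 1 without vehicle array 2) fell. Osgin1, an oxidative stress-responsive growth inhibitor, accounted for the extreme, at 4.21, 4.76 and 3.77 in controls and -1.46, -0.98 and -1.38 after dexamethasone (46.0-fold lower, adjusted p = 3.54e-06), while Nqo1 (-0.38 ± 0.51) and Gclc (0.36 ± 0.45) did not pass the test.

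Most measured chemokines and cytokines fell: 20 (13 with the slide block) of 29 measured members were called lower and 0 (0 at an unadjusted p under 0.05) higher, against 12.6% and 11.8% of all genes, with a median of -1.65 (-1.42 with members below background in 1 group at their bound, -0.78 with normexp). Cxcl10 (probe A_44_P1039128), the interferon-induced attractant of T cells, read -0.33, -0.68 and -1.09 in vehicle liver and was not well above background on any treated array, at least 13-fold lower (adjusted p = 1.25e-05). Ccl2, which draws monocytes, read -2.13, -2.43 and -2.26 in controls and was likewise at least 4.37-fold lower (adjusted p = 9.44e-06). The interleukin-1 beta gene Il1b fell by 2.79 (SE 0.30), the macrophage chemokine Ccl4 fell by 2.17 (SE 0.23) and Ccl19, which guides lymphocytes, fell by 2.14 (SE 0.27). Cxcl1 (-2.10 ± 0.89), a neutrophil attractant, did not pass the test.

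NF-kappaB pathway genes moved in both directions, 5 of 26 higher and 9 (5 without vehicle array 1) lower. Nfkbia, which holds NF-kappaB in the cytoplasm, rose by 1.80 ± 0.21, and Il1r2, the decoy receptor of interleukin-1, at least 3.31-fold from a level not well above background in controls (adjusted p = 0.00518). The pattern recognition receptor Tlr2 fell by 1.56 (SE 0.34) and the TNF receptor Tnfrsf1b by 1.07 (SE 0.21). Of the IL-6 family genes 4 of 19 rose and 4 fell. Both receptor chains rose, Il6r by 2.02 ± 0.22 and the shared signal chain Il6st by 1.46 ± 0.27. Socs2, a feedback inhibitor of growth hormone signalling, fell by 1.81 (SE 0.20) and the kinase Jak2 by 1.11 (SE 0.16), while Stat3 (0.66 ± 0.31) and Socs3 (-1.25 ± 0.50) did not pass the test. In the fit with slide as a block, the adjusted p passed 0.05 for Il1r2 (0.0945), value in parentheses.

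All 6 measured interferon-inducible GTPases fell, with a median of -2.48 (-2.15 with members below background in 1 group at their bound, -1.33 with normexp). Gbp2 (probe A_44_P1053321), a guanylate-binding protein that attacks pathogen vacuoles, went from 2.06, 1.48 and 1.80 to -1.21, -1.22 and -1.80, 9.14-fold lower with no overlap (adjusted p = 3.29e-05). Igtp and Irgm, GTPases of the immunity-related family, both fell (-2.33 ± 0.29 and -2.75 ± 0.41). Gbp5 was not well above background on any treated array and was at least 1.71-fold lower (adjusted p = 0.0011). The dynamin-like Mx2 fell by 1.96 (SE 0.53), with 2 treated arrays well above background. Mx1, not well above background on any treated array, was at least 1.49-fold lower, with vehicle array 3 inside the treated range. With slide as a block the calls of Mx1 and Mx2 ended (adjusted p = 0.310 and 0.160), and each was lost on leaving out 1 array (0.112 without dexamethasone array 2 and 0.0763 without vehicle array 1). The list named 12 GTPases, of which 7 were on the array. Ifi47, a related GTPase outside the list, showed the largest called decrease among genes with a symbol whose arrays did not overlap, from 3.59, 3.20 and 4.38 to -2.31, -2.05 and -3.92 (89.6-fold, adjusted p = 6.62e-05).

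Antiviral effectors and RNA sensors followed in part, 17 (10 with the slide block, 11 without vehicle array 2) of 34 lower and 1 higher, with a median of -0.92 (-0.56 with normexp). Ifit2, which binds viral RNA, fell by 2.58 (SE 0.29), Rtp4 fell by 2.21 (SE 0.27) and Oasl2, of the oligoadenylate synthetase family, by 2.16 (SE 0.17). The transcription factor Irf1 fell by 2.0 (SE 0.45). The member called higher was Ifih1 (probe A_44_P590748), the cytosolic RNA sensor MDA5, at -1.86, -1.82 and -1.66 in controls and 2.71, 2.29 and 1.84 after dexamethasone (16.7-fold, adjusted p = 3.54e-06). Stat2 (0.13 ± 0.27) and Irf9 (0.19 ± 0.21), which form the interferon-activated complex, did not pass the test.

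MHC class II genes were lower at 6 of 11 and class I processing genes at 4 (1 with the slide block, 2 without vehicle array 1) of 25. Among the class II genes RT1-Da fell by 1.86 (SE 0.30) and Cd74, the invariant chain, by 1.43 (SE 0.30). RT1-Bb fell by 1.94 (SE 0.40), RT1-Db1 by 1.63 (SE 0.26) and the costimulatory receptor gene Cd40 by 1.00 (SE 0.22). Ciita, the master regulator of class II transcription, fell by 1.5 (SE 0.43) with 1 of 3 treated arrays well above background. The remaining class II genes, RT1-DMa, RT1-Ba, RT1-DOb, Ctss and Ifi30, lay between -0.65 and 0.06 and did not pass the test. Calls that ended when slide was a block were those of RT1-Bb (0.0678), adjusted p in parentheses. The block moved the log2 difference by over 1.5 times for Cd74 (-2.31), Cd40 (-1.62) and Ciita (-2.36). Single arrays decided the call for Ciita (0.095) without dexamethasone array 1, adjusted p in parentheses.

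Promoters of 4 of these genes are shown because they share the repeat that interferon-activated factors bind, searched on both strands as TTTC, any 2 bases and TTTC again, and set in capitals. All are the 250 bases before the RefSeq start in build GRCr8. The genes are Cxcl10 (chr14:15988816-15989065, plus strand), Gbp2 (chr2:234005477-234005726, plus strand), Igtp (chr10:42874797-42875046, plus strand) and Ifih1 (chr3:67683969-67684218, minus strand). In Cxcl10 the second run of capitals is a match to the NF-kappaB consensus.
Cxcl10: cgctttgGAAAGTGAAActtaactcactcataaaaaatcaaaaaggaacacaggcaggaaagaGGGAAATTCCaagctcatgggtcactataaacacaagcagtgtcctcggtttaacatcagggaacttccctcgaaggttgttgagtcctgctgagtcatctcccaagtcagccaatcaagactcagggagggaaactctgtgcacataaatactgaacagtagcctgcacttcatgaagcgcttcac
Gbp2: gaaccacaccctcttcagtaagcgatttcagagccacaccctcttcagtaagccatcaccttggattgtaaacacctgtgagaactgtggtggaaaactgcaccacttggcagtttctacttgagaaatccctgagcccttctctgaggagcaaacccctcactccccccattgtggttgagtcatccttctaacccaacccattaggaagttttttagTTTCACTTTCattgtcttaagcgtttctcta
Igtp: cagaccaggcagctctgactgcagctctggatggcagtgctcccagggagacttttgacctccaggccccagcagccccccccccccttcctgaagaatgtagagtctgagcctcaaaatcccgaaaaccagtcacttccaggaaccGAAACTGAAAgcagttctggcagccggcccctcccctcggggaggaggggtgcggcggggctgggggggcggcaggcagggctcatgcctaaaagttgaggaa
Ifih1: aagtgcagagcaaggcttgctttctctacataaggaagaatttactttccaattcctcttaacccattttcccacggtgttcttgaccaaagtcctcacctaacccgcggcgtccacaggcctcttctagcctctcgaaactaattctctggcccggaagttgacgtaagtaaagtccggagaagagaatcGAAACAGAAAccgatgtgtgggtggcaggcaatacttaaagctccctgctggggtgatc
The repeat was in 2.95% of tested genes' promoters and 3.29% of all promoters. It was in 4 of the 5 matched promoters of GTPases called lower and in 9 of 12 (75%) of antiviral genes called lower. The antiviral genes that were not called held it in 6 of 13 (46.2%), and Ifih1, which rose, held it too. Among all genes called at least 4-fold lower 16 of 150 promoters (10.7%) had the repeat, and among those at least 4-fold higher 7 of 178 (3.93%). The NF-kappaB consensus was in 6.67% of promoters of the genes at least 4-fold lower, in 4.49% of those at least 4-fold higher and in 4.05% of tested genes' promoters. The chemokines and cytokines called lower held it in 2 of 15 matched promoters (13.3%) and those not called in 2 of 7 (28.6%).

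The share of genes called, 24.3% over all genes, was 8.82% for acute phase plasma proteins, 13.8% for coagulation, 26.9% for complement and 28.6% for iron and metal handling. In the acute phase list 2 (0 with the slide block) of 34 rose and 1 fell. The protease inhibitor A2m read 4.54, 4.53 and 5.72 in controls and 9.14, 9.06 and 7.09 after dexamethasone (3.50 ± 0.55, adjusted p = 0.00137), with replicate 3, the pair on one slide, closer together than the others. Orm1, the orosomucoid, rose by 2.70 ± 0.46. Albumin (Alb, 0.62 ± 0.25), haptoglobin (Hp, 0.40 ± 0.29) and transthyretin (Ttr, -0.17 ± 0.40) did not pass the test. Complement genes were lower at 7 (3 with the slide block, 4 without dexamethasone array 2) of 26 and higher at 0 (0 at an unadjusted p under 0.05), among them the first-component proteases C1s (-1.14 ± 0.18) and C1r (-1.16 ± 0.26). Of 29 coagulation genes 2 rose and 2 (1 with the slide block, 1 without vehicle array 3) fell. Tissue factor (F3), which starts clotting, rose by 1.91 ± 0.30. In iron and metal handling 5 (2 with the slide block) of 28 rose and 3 (0 with the slide block, 1 without vehicle array 1) fell, with Alas1, the rate-limiting enzyme of heme synthesis, higher by 1.40 ± 0.23 and Hjv, hemojuvelin, a coreceptor upstream of hepcidin, lower (-1.43 ± 0.22). The slide block ended the call for A2m (0.0805, log2 difference 1.80), Orm1 (0.0501), C1s (0.0662, log2 difference -0.71), C1r (0.0637, log2 difference -0.70) and Hjv (0.112, log2 difference -0.91), adjusted p in parentheses.

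**Figure D4:**
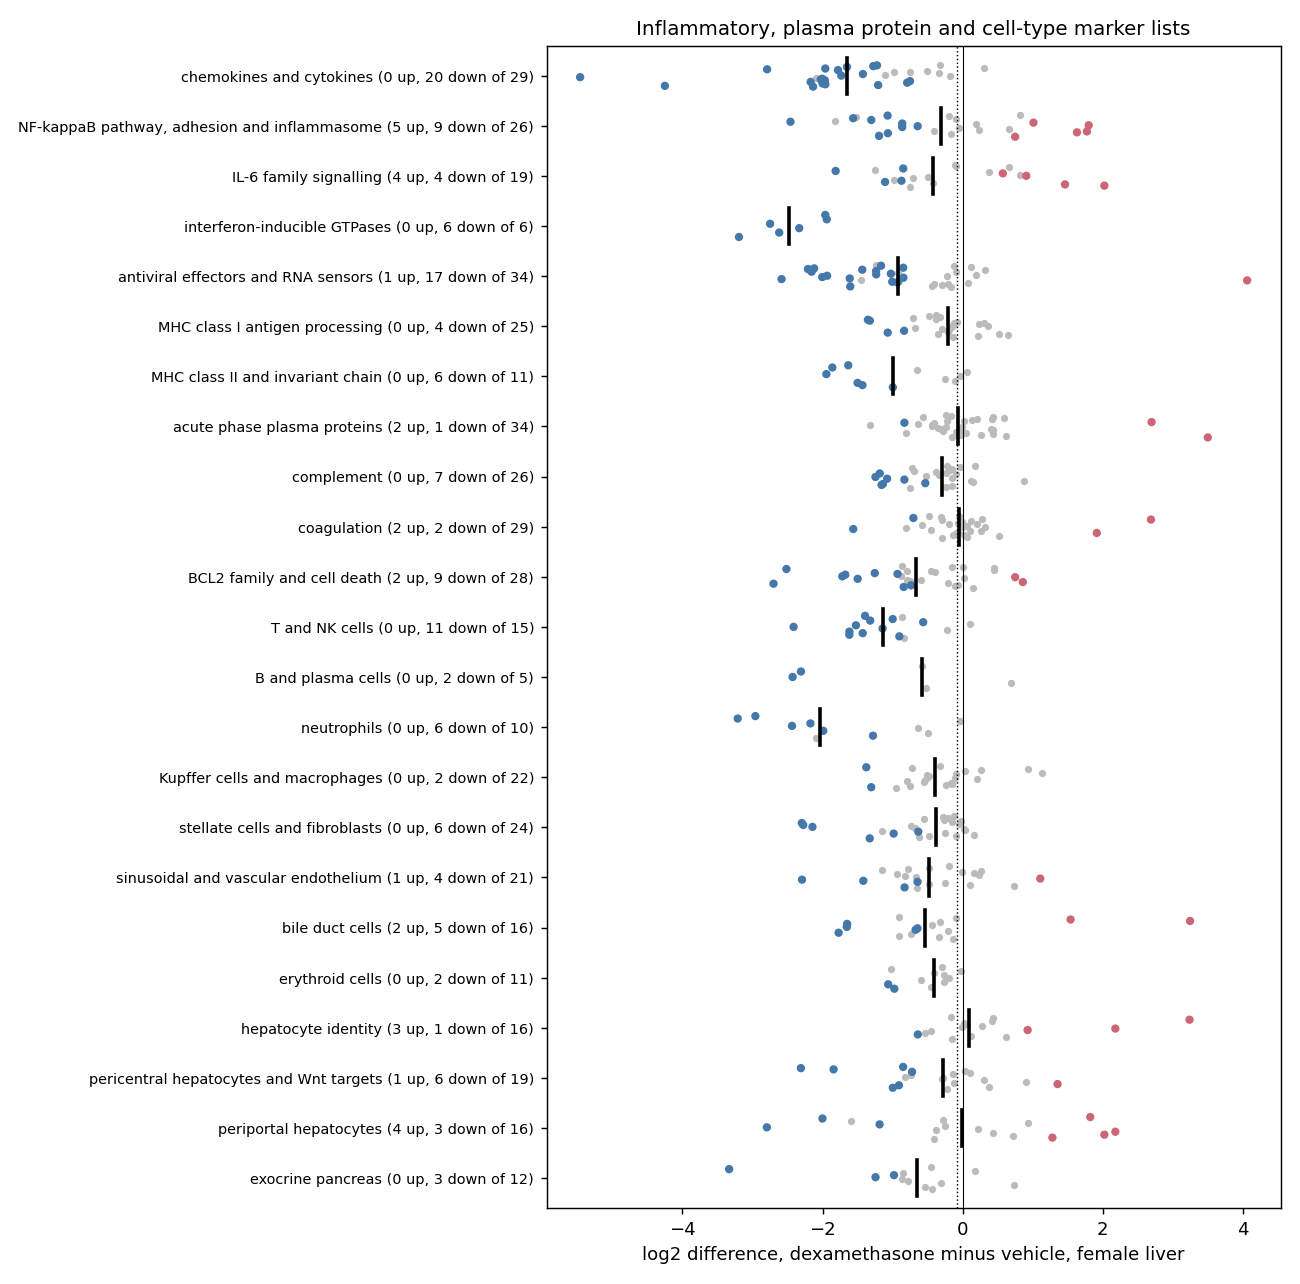
Log2 differences (x axis, dexamethasone minus vehicle, female liver) of the measured members of inflammatory, plasma protein, cell death and cell-type marker lists; red points were called higher, blue lower and grey neither, bars are list medians and the dotted line is the all-gene median of -0.07. All called chemokines and cytokines and all measured interferon-inducible GTPases lie left of 0.

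The growth hormone and IGF list held 2 (1 with the slide block, 1 without vehicle array 3) genes higher and 4 (2 with the slide block, 2 without dexamethasone array 2) lower of 19. The share of that list called was 31.6%, beside 24.3% of all genes. Igf1 itself gave -0.03 ± 0.30 and the receptor Ghr -0.05 ± 0.28, neither past the test, and Igfbp3, the main carrier of IGF1 in plasma, rose by 1.00 ± 0.18. Regulators of sex-biased liver expression changed in both directions, 4 higher and 6 lower of 21. Cux2 (probe A_44_P485948), a female-specific repressor of male-biased genes, went from 3.14, 3.27 and 3.61 to -0.18, -0.61 and 0.44 (11-fold lower, adjusted p = 5.00e-04), and Trim24 fell by 2.81 (SE 0.28). The male-biased repressor Bcl6 rose by 2.67 ± 0.62, the pioneer factor Foxa1 by 1.47 ± 0.17 and the estrogen receptor Esr1, not well above background on any vehicle array, at least 1.19-fold (adjusted p = 2.50e-04). Of genes expressed more in female liver 9 (5 with the slide block, 5 without dexamethasone array 2) of 32 fell and 1 rose, a share called of 31.2%. Of those expressed more in male liver 1 of 28 fell and 3 rose, a share of 14.3%. Cyp2c12, the classic female P450, gave -0.41 ± 0.53 and did not pass the test. Calls that ended when slide was a block were those of Igfbp3 (0.0556) and Bcl6 (0.0975), adjusted p in parentheses.

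Circadian clock genes split evenly, 6 (3 without dexamethasone array 2) higher and 6 lower of 21. Beside Per1, the repressor gene Cry1 rose by 1.62 ± 0.24 and Csnk1d, a kinase of the PER proteins, by 1.21 ± 0.24. Dbp (probe A_44_P280898), a clock output factor, fell from 4.67, 4.59 and 5.15 to 0.71, 0.41 and 0.59, 18.8-fold (adjusted p = 2.24e-04), and Nr1d1 (REV-ERB alpha) fell by 1.45 (SE 0.17). All animals were killed at one interval after injection, so these are differences at one time and not changes of phase.

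In the cell cycle 3 of 24 cyclins and inhibitors rose and 6 (3 with the slide block) fell, and 0 (1 at an unadjusted p under 0.05) of 26 replication and mitosis genes were called in either direction by limma (1 was called higher when arrays were scaled by the median and 3 with slide as a block). The median of the replication and mitosis genes was 0.45 (1.14 with the slide block, 0.95 within slide 5, 0.12 with normexp, 0.22 without vehicle array 3, 0.72 without vehicle array 2). Ccnd1 (probe A_44_P189299), cyclin D1, which drives entry into the cycle, fell from 4.25, 4.56 and 4.62 to 0.19, -0.16 and 0.91, 17.9-fold (adjusted p = 1.02e-04), and Ccnd2 fell by 2.18 (SE 0.27). Cyclin E1 (Ccne1) moved opposite, from -0.69, -0.43 and -0.01 to 3.38, 3.11 and 3.52 (13.1-fold higher, adjusted p = 3.54e-06). Among immediate early genes 4 (2 with the slide block) of 31 rose and 8 fell; the MAP kinase phosphatase Dusp6 fell by 2.70 (SE 0.30), Egr1 by 2.0 (SE 0.36), and Rhob, a small GTPase, rose by 3.15 ± 0.20.

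Stress and death genes gave 9 (5 without vehicle array 1) of 28 lower and 2 (1 with the slide block, 1 without vehicle array 2) higher for the BCL2 family and cell death, with a median of -0.66 (-0.52 with members below background in 1 group at their bound, -0.39 within slide 5, -0.33 with normexp, -0.44 without dexamethasone array 3). Bbc3, the p53 target PUMA, fell by 2.70 (SE 0.22) and the death receptor Fas by 2.52 (SE 0.22), while the anti-apoptotic Bcl2l1 rose by 0.86 ± 0.21. Hrk, a pro-apoptotic BH3-only gene outside the list, went the other way from Bbc3 and Fas and rose by 5.64 ± 0.60. Of the unfolded protein response 3 of 24 rose and 1 fell, a share called of 16.7% beside 24.3% of all genes. Edem1, which sorts misfolded glycoproteins for degradation, was up 8.65-fold (adjusted p = 3.84e-06), and the main ER chaperone Hspa5 was not past the test (0.31 ± 0.21). Among ATF4 targets and mTOR brakes 2 (1 with the slide block) of 22 rose, including Ddit4 (2.28 ± 0.56), and 5 (2 with the slide block, 2 without vehicle array 2) fell, including Gdf15 (-3.27 ± 0.38). Proteasome subunits were higher at 12 (7 with the slide block, 7 without vehicle array 2) of 31 and lower at 0 (0 at an unadjusted p under 0.05), with a median of 0.39. Ribosomal proteins were higher at 9 (2 with the slide block, 2 without vehicle array 2) of 43 and respiratory chain subunits at 5 (2 with the slide block, 3 without vehicle array 1) of 43. The shares higher were 38.7%, 20.9% and 11.6% in that order, beside 11.8% of all genes, so the respiratory chain did not stand out. Once slide entered the fit as a block, no call was made for Bcl2l1 (0.0732), adjusted p in parentheses. On leaving out each array in turn, the call ended for Bcl2l1 (0.0543) without vehicle array 2, adjusted p in parentheses.

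Markers of the cell types in whole liver were read from the same arrays. In such bulk samples fewer cells of a type and less RNA per cell cannot be told apart. Hepatocyte identity markers had 3 higher and 1 lower of 16, a share called of 25% beside 24.3% of all genes. Their median difference was 0.09 (0.20 with the slide block, 0.23 within slide 5, 0.15 with normexp, -0.0035 without dexamethasone array 3). List means lay between 6.86 and 6.95 in vehicle and between 7.16 and 7.45 after dexamethasone. These means include the induced enzyme genes Tdo2 and Cps1 and do not show a rise of the markers as a set. T and NK cell markers were lower at 11 (6 with the slide block, 7 without vehicle array 1) of 15 and higher at 0 (0 at an unadjusted p under 0.05); their mean level was -1.85 to -1.63 in vehicle and -2.98 to -2.63 after dexamethasone, with a median difference of -1.14 (-1.0 with members below background in 1 group at their bound, -0.44 with normexp). Gzma, a granzyme of cytotoxic cells, fell by 2.41 (SE 0.23), and Cd8a, not well above background on any treated array, was at least 2.74-fold lower (adjusted p = 0.00135).

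Neutrophil markers were lower at 6 (2 with the slide block) of 10, and their mean went from -1.23 to -0.93 in vehicle to -3.02 to -2.64 after dexamethasone, with a median difference of -2.04 (-0.96 with members below background in 1 group at their bound, -0.75 with normexp). The alarmin gene S100a9 read -1.90, -1.58 and 0.38 in controls and -3.72, -4.20 and -4.06 in treated liver (adjusted p = 0.00172). Its partner S100a8, well above background on 1 treated array, fell by 3.21 (SE 0.61), and the NADPH oxidase genes Ncf1 (-2.44 ± 0.39), Ncf4 (-2.17 ± 0.58) and Cyba (-1.28 ± 0.27) fell too. The integrin gene Itgam, not well above background on any treated array, was at least 1.27-fold lower, while Csf3r (-2.09 ± 0.79, below that level on every treated array), Lcn2 (-0.63 ± 0.47), Cybb (-0.49 ± 0.67) and Np4 (-0.04 ± 0.17) did not pass the test. B and plasma cell markers were lower at 2 (1 with the slide block, 0 without dexamethasone array 2) of 5, Jchain and Cd79b, the former not well above background on any treated array and at least 1.83-fold lower. Cd22 (0.70 ± 0.77), Blk (-0.52 ± 0.31) and Mzb1 (-0.59 ± 0.53) did not pass the test. Kupffer cell and macrophage markers were lower at 2 (1 without vehicle array 1) of 22, a share of 9.09% beside 12.6% of all genes, or at 3 with the slide block and 5 with slide as a random block. Their median difference was -0.40 over all arrays, -1.08 with the slide block, -1.15 within slide 5 and between -0.69 and 0.16 on leaving out single arrays (without dexamethasone array 2 and without dexamethasone array 3). The resident macrophage genes Clec4f (-0.54 ± 0.36) and Cd163 (-0.55 ± 0.74, well above background on 2 treated arrays) did not pass the test. The slide block ended the call for S100a8 (0.123), Ncf1 (0.069), Ncf4 (0.0873), Itgam (0.191) and Cd79b (0.0663), adjusted p in parentheses. The call was lost on leaving out 1 array for Ncf4 (0.0593) without dexamethasone array 3, and Jchain (0.0937) and Cd79b (0.0553) without dexamethasone array 2, adjusted p in parentheses. The medians of the T and NK cell and neutrophil lists lay in the same direction as those of the chemokines, interferon-inducible GTPases, antiviral genes and MHC class II genes, and the part of these marker lists in those results was not tested.

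Stellate cell and fibroblast markers were lower at 6 of 24, endothelial markers at 4 (7 with the slide block) of 21 and bile duct markers at 5 (1 with the slide block, 2 without vehicle array 2) of 16, with 1 endothelial and 2 (1 without dexamethasone array 2) bile duct markers higher. The shares called were 25%, 23.8% and 43.8% in that order, beside 24.3% of all genes. Lrat, which stores retinol as ester in stellate cells, fell by 2.14 (SE 0.20), and the mesenchymal receptor Pdgfrb fell by 2.30 (SE 0.28), while the collagen genes Col1a1 (-0.62 ± 0.22) and Col3a1 (-0.48 ± 0.30) did not pass the test. Kdr, the endothelial VEGF receptor, fell by 2.29 (SE 0.37). Slide as a block gave a log2 difference over 1.5 times apart for Kdr (-3.47). A call was gained with slide as a block for Col1a1 (adjusted p = 0.0248 with a random block) and Col3a1 (-0.84, adjusted p = 0.0454). Prom1, listed for bile duct cells, rose by 3.25 ± 0.30, whereas Krt19 (-0.44 ± 0.47) and Epcam (-0.21 ± 0.37) did not pass the test. Of hepatocyte zones, pericentral and Wnt target genes were lower at 6 (1 with the slide block, 3 without dexamethasone array 2) of 19 and higher at 1, including Tbx3 (-2.31 ± 0.52), while Glul (0.91 ± 0.31), the glutamine synthetase of the cells around the central vein, did not pass the test. Periportal genes were higher at 4 and lower at 3 of 16.

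The largest increases over all genes with a symbol and no overlap were led by transcripts that vehicle liver barely showed. Slc5a11, a sodium-coupled inositol transporter, was not well above background on any vehicle array and was at least 55.8-fold higher after dexamethasone, where it read 1.84, 1.61 and 1.98 (adjusted p = 5.45e-06). B3galnt1, a glycosyltransferase gene, and Gucy2c, the guanylate cyclase receptor of the gut hormone guanylin, were likewise at least 27.9-fold and 21.5-fold higher. Ces2c, a carboxylesterase, was measured in both groups, at 0.93, 1.12 and 0.82 in controls and 7.82 and 7.64 in treated arrays 1 and 3, a 109.6-fold rise (adjusted p = 1.15e-05), with the spot on array 2 flagged. Rdh16, a retinol dehydrogenase, rose from -3.67, -2.87 and -2.91 to 2.90, 2.83 and 2.06 (53.6-fold), Aspa, which splits acetylaspartate, 49.6-fold, and Slc4a8, a bicarbonate transporter well above background on 1 vehicle array, 46.8-fold (adjusted p = 6.46e-07). Hrk, a pro-apoptotic BH3-only gene well above background on 2 vehicle arrays, rose by 5.64 ± 0.60, and Coq10b, a coenzyme Q binding protein gene, rose 30.1-fold (adjusted p = 4.81e-05). A further 5 genes had no vehicle array well above background: Tekt5l1 was at least 23.8-fold higher, Doc2a at least 23.5-fold, the fatty acid elongase gene Elovl3 at least 13.5-fold (call lost with slide as a block, 0.066), Ropn1 at least 7.96-fold and the channel gene Cnga1 at least 7.74-fold.

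The largest decreases beyond those already given included Gucy1b2, a subunit of soluble guanylate cyclase, from 0.85, 0.77 and -0.06 with 2 of 3 treated arrays still above background (adjusted p = 3.56e-05). The anchoring protein gene Akap5 fell 12.0-fold, and the kinase gene Sgk2, well above background on 1 treated array, 17.1-fold. Ddit4l, a brake on mTOR, was at least 2.44-fold lower. The peptide genes Pnoc and Apln were not well above background on any treated array and were at least 8.63-fold and 10.7-fold lower (adjusted p = 1.23e-04 and 0.00178). Among all called genes, 339 that rose were not well above background on any vehicle array and 322 that fell on any treated array.

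Male liver given the same treatments called 4884 genes (20.1%), 2246 higher (9.24%) and 2638 lower (10.9%), with 3390 of them also called in females, where 3383 moved the same way and 7 opposite. The 2525 genes called only in females and the 1494 called only in males are not by that count shown to differ between the sexes. The test of the difference itself, female minus male, called 7 genes (0.0288%), 3 with a higher (0.0123%) and 4 with a lower (0.0165%) difference in females, while 2415 genes had an unadjusted p under 0.05. No member of the lists above was among the 7. G6pc1, for instance, fell by 2.79 in females and gave -0.56 ± 0.26 in males, and the adjusted p of that difference was 0.0876. Other fits called between 0 and 29 genes, and the genes were not the same: the fixed slide block called 9 and shared none with the 7. Leaving out any one of the 6 male arrays, female vehicle array 1 or dexamethasone array 2 left 0 calls, with 1663 to 3080 genes at an unadjusted p under 0.05.

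Faxdc2, a hydroxylase-family gene, was among the 7. It rose by 3.83 ± 0.22 in females and by 1.22 in males, differing by 2.61 ± 0.30 (adjusted p = 0.0366). Fut4, a fucosyltransferase, rose by 0.77 ± 0.25 in females and 4.13 in males. Capn8, a calpain, was well above background on the 3 male dexamethasone arrays and on no array of the other groups. Its male difference of 4.27 starts from a level below background, so its size is not well measured. With slide as a block the adjusted p of the difference was 0.124 for each of these 3 genes, and the female call of Fut4 was lost with that block (0.19, adjusted p = 0.768) and without dexamethasone array 1 (adjusted p = 0.169). Of the 7, 3 had no gene symbol.

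**Figure D5:**
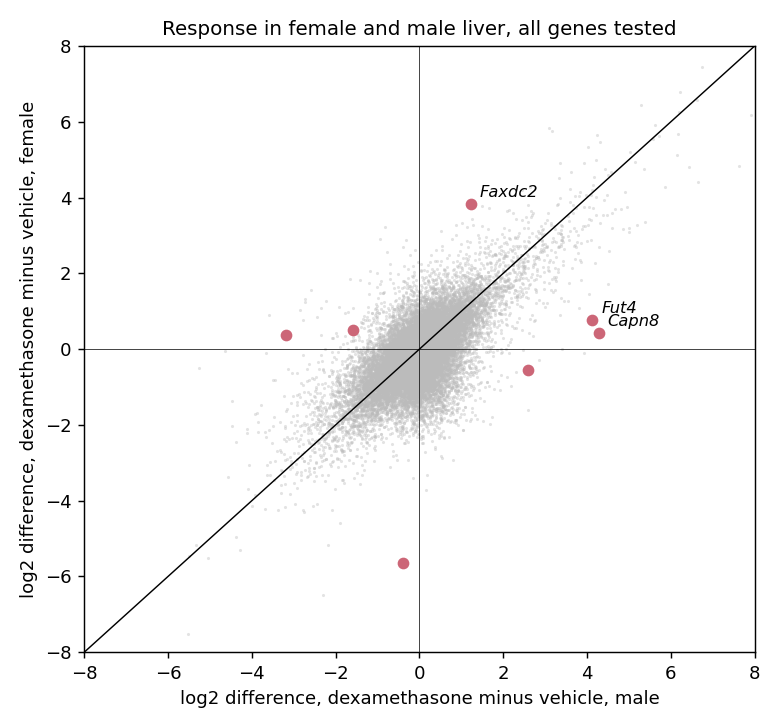
Each point is a gene tested, with its log2 difference (dexamethasone minus vehicle) in male liver on the x axis and in female liver on the y axis; the diagonal marks equal responses. Red points are the 7 genes whose difference between the sexes passed the test, with Faxdc2, Fut4 and Capn8 named.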

How the data were processed

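Spot intensity on a linear scale, background-subtracted and detrended, was deposited per array from Agilent Feature Extraction 9.1.3.1, per the file headers (9.1 in the submitters' processing notes). Labelling began with 500 ng of pooled RNA. The authors' deposited value table holds log10 values with an unstated scaling (array medians 1.49 to 1.52) and served as an alternative. Log2 signals were centred on each array's 75th percentile. Control spots and 211 outliers were dropped. Of 41012 probes 28173 remained, those that 3 or more of the 12 arrays showed well above background and that 2 or more usable spots represented in each group, and the brightest probe stood for a gene. Several probes remained for 2728 genes with a symbol. Over all genes and unnamed transcripts, probes of 7 were called in opposite directions. RefSeq tables named 20255 probes and 20757 kept the file's name. limma 3.58.1 in R 4.3.3 fitted 4 group means over 12 arrays, so all groups share 1 estimate of the spread. The fit was tested on simulated data with independent noise and no slide effect. On the real arrays the residuals left after the group means had a consensus correlation of 0.513 within slides, which that test does not cover.

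Members and lists were chosen with earlier results of these data known. Genes named were drawn from a set of classic targets, the 15 largest non-overlapping calls each way, up to 5 calls each way in every list, its defining members and the called differences between the sexes; genes outside these were chosen after their values were seen. A level below background gives a bound: the bright group's mean over the dim group's mean of, per array, the higher of the lowest signal well above background and the probe's own. For a female group, the number of arrays well above background is the highest count of any probe of the gene. Levels and differences are those of its brightest probe. Alternatives covered scaling, background correction, filter, source of values, probe rule, variance model, slide, scan day, replicate number and leaving out arrays. Slides and scan days are numbered in the order of scanning. Some genes that the naming rule picks are not reported here.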

Additional observations from a re-analysis of the deposited data

Results flagged for a closer look

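The test of the difference in response between the sexes, female minus male on the log2 scale in limma, passed for Faxdc2, Fut4 and Capn8, each with adjusted p = 0.0366. Faxdc2 differed by 2.61 ± 0.30, rising by 3.83 in females and by 1.22 in males. Fut4, a fucosyltransferase, differed by -3.35 ± 0.36, at 0.77 in females and 4.13 in males. Capn8, a calpain, differed by -3.85 ± 0.47, at 0.43 in females, where no array was well above background, and 4.27 in males. No male vehicle array was well above background for Capn8 either, so the sizes of its male rise and of its difference are not well measured. None of these 3 kept an adjusted p under 0.05 in every limma fit that left out 1 array, and the highest values were 0.142 for Faxdc2 and Capn8 and 0.0991 for Fut4. Within slide 5 alone, a value with no test, the differences were 2.29 for Faxdc2, -3.66 for Fut4 and -5.00 for Capn8.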

How the results depend on the processing

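The count of 5915 female genes called stayed within 1.5 times of itself with quantile normalization (5955), median scaling (5829), normexp background correction (5272), the authors' deposited table (5920), no filter (4698), a stricter filter (6039), means over probes (5844), female arrays only (5159), an intensity trend (6203), slide as a random block (6032) and scan day as a block (4066). It was 3079 with slide as a fixed block, and it ranged from 3740 to 6069 when each of the 12 arrays was left out. Of the 5915, 3289 were called in all 6 fits that each left out 1 female array. Of the 174 called genes named in the text, 0 turned sign under any alternative, 30 lost their call with slide as a fixed block and 156 kept it without any one female array. Of 56 list medians 50 kept their sign with slide as a fixed block, 50 within slide 5 and 47 with median scaling.

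The labels number replicates 1 to 3 in both groups, but same-numbered arrays deviated together only weakly (r = 0.0676, 0.113 and 0.181) and vehicle array 1 resembled dexamethasone array 2 most (0.247), so the numbers were not taken to pair the samples. With the replicate block the fit called 7721 genes for the female difference, 5830 of them among the 5915, and 8 for the difference between the sexes, 3 of them among the 7.

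The count of 7 genes for the difference between the sexes was less stable. It was 29 with normexp, 14 with an intensity trend, 4 with scan day as a block and 0 in limma without a filter (2791 genes at an unadjusted p under 0.05). It ranged from 0 to 5 on leaving out single arrays, with 0 without any one of the 6 male arrays, female vehicle array 1 or dexamethasone array 2 (1663 to 3080 genes at an unadjusted p under 0.05). The cause was not tested. It was 9 with slide as a fixed block and 10 with a random one, sharing 0 and 5 genes with the 7.

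Differences that had not been called turned sign under some alternatives. These were, with quantile normalization, Akt1 (-0.078), Fah (-0.037), Igf1 (0.00046), RT1-Ba (0.11) and RT1-DMa (-0.022). With the authors' deposited table they were Akt1 (-0.068), Fah (-0.060) and RT1-DMa (-0.015). With the fixed slide block they were Akt1 (-0.089), Akt2 (0.058), Capn8 (-0.42), Cpa1 (1.98), Cyp2c12 (0.12), Fabp4 (-1.35), Ghr (0.57), Hbb (0.025), Hsd11b1 (-0.24), Igfbp1 (0.26), Mzb1 (0.38), Nqo1 (0.27), Pc (0.23), Per2 (-0.57), RT1-Ba (0.14), RT1-DMa (-0.0090) and Ttr (0.14). With the random slide block they were Akt1 (-0.020), Cpa1 (0.69), Fabp4 (-0.38), Ghr (0.23), Pc (0.045), RT1-Ba (0.064) and RT1-DMa (-0.027). With the scan day block they were Akt1 (-0.046), Akt2 (0.15), Capn8 (-0.46), Cpa1 (1.80), Cyp2c12 (0.43), Fabp4 (-1.05), Ghr (0.58), Hbb (0.043), Hp (-0.0035), Hsd11b1 (-0.24), Igfbp1 (0.48), Mzb1 (0.17), Nqo1 (0.34), Pc (0.19), Per2 (-0.76), RT1-Ba (0.15) and Ttr (0.083). With median scaling they were Akt2 (0.072), Ctss (0.087), Cyp7a1 (0.0046), Fbp1 (0.066), Ghr (0.15), Hbb (0.00033), Igf1 (0.17), Np4 (0.16), Pc (0.097), RT1-Ba (0.16) and Ttr (0.033). With normexp they were Capn8 (-0.069) and Igf1 (0.086). With means over probes they were Ctss (0.067) and Fbp1 (0.051). On leaving out single arrays the log2 difference ran for Akt1 from -0.18 to 0.22, Akt2 from -0.33 to 0.019, Cd163 from -1.03 to 0.17, Cpa1 from -1.52 to 0.34, Ctss from -0.40 to 0.21, Cybb from -0.98 to 0.039, Cyp7a1 from -0.44 to 0.11, Epcam from -0.61 to 0.025, Fabp4 from -0.23 to 1.32, Fah from -0.12 to 0.16, Gclc from -0.25 to 0.69, Ghr from -0.30 to 0.22, Hbb from -0.53 to 0.25, Igf1 from -0.18 to 0.15, Irf9 from -0.029 to 0.30, Np4 from -0.14 to 0.040, Pc from -0.30 to 0.025, RT1-Ba from -0.81 to 0.37, RT1-DMa from -0.32 to 0.53, Stat2 from -0.17 to 0.33 and Ttr from -0.51 to 0.070.

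For 661 calls 1 group was not well above background on any array, which leaves a bound on the fold; a spread over 3 pools a group limits precision throughout.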

Other observations

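Lists of markers for tissues that a liver sample could carry along were read from the same female arrays. Of 12 measured exocrine pancreas genes, from 20 listed, 3 (1 with the slide block) were lower and 0 (1 at an unadjusted p under 0.05) higher, with a median of -0.66 that moved to -0.08 in the fit with the slide block, -0.08 on slide 5 alone and -0.37 with normexp. Spink1, a trypsin inhibitor, read 0.91, 1.53 and 1.14 in vehicle liver and -2.09, -1.57 and -2.76 after dexamethasone, 10.1-fold lower with no overlap (limma, adjusted p = 4.55e-05). Ctrb1, a chymotrypsinogen gene, fell by 1.24 (SE 0.33), and Ctrc, not well above background on any treated array, was at least 1.91-fold lower. Cpa1, a pancreatic carboxypeptidase gene, read -1.86 and -1.71 in dexamethasone arrays 1 and 2 and 1.86 in array 3, against -0.44, 0.30 and -0.67 in the vehicle arrays, so 1 treated pool stood above all others. With slide as a block the calls ended for Ctrb1 (0.239, log2 difference -0.47) and Ctrc (0.204), adjusted p in parentheses. Leaving out 1 array ended the call for Ctrb1 (0.0809) without vehicle array 2, adjusted p in parentheses.

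Erythroid genes were lower at 2 (0 with the slide block, 0 without vehicle array 1) of 11, the hemoglobin chaperone gene Ahsp (-0.98 ± 0.28) and the membrane skeleton gene Epb42 (-1.06 ± 0.29), while the beta globin gene Hbb gave -0.20 ± 0.42 and did not pass the test. Adipocyte genes were higher at 2 (1 without vehicle array 1) of 6, the droplet protein gene Cidec (1.66 ± 0.20) and Retn, resistin, at least 1.81-fold. The adipocyte gene Fabp4 gave 0.40 ± 0.76, with treated array 3 at -4.87 below the others. In the fit with slide as a block, the adjusted p passed 0.05 for Ahsp (0.207), Epb42 (0.436, log2 difference -0.63) and Retn (0.0972), value in parentheses. Without 1 array the highest adjusted p was past 0.05 for Ahsp (0.108) and Epb42 (0.0899) without dexamethasone array 2, and Retn (0.0989) without vehicle array 1. Conjugating enzymes were higher at 4 (2 with the slide block) and lower at 4 (2 without vehicle array 1) of 30, a share called of 26.7% beside 24.3% of all genes. Sult1b1, a thyroid hormone sulfotransferase, rose by 1.94 ± 0.34, and Gstp1, a glutathione transferase, fell by 0.95 (SE 0.19).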
